A study of Artemisia annua with 12 samples.

Results

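In leaves of Artemisia annua, the source plant of the antimalarial artemisinin, 55 of 63226 listed genes stood high after 2 h of supplementary UV-B and were back near their starting level at both 4 and 6 h. The genes were chosen by a rule on the mean log2(value + 1) of the 3 libraries at each harvest: a 0 h mean of at least 1, a rise of at least 1.5 at 2 h, and a difference of at most 0.5 from 0 h, in either direction, at 4 h and at 6 h. The values came from wild-type seedlings of the high-artemisinin cultivar 'Huhao 1', aged 6 weeks when exposed. Narrowband UV-B lamps were added to their normal growth conditions, and the most recently expanded leaf was taken after 0 h (no added UV-B), 2 h, 4 h and 6 h, with 3 libraries per harvest and leaves of 3 seedlings mixed in each library. The labels describe the 3 libraries as biological repeats. Unexposed seedlings harvested at the later hours were not analysed here, and the effect of the lamps and that of the time of day cannot be told apart. A leaf holds many cell types, and fewer cells of a type cannot be told apart from less RNA per cell.

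Plants sense UV-B through the photoreceptor UVR8, which acts with COP1 and the transcription factor HY5 to switch on genes for sunscreen flavonoids and repair of light damage. A transcript that goes up and comes down within hours is a common form of plant stress response, known for instance for genes of transcription factors, hormone signalling and calcium signalling. The level of such a transcript at any harvest reflects both its synthesis and its decay, which a single RNA measurement does not separate. The deposited table gives identifiers without names or sequences, so what any of the 55 genes encodes is not stated here, and leaf cell types could not be checked against marker genes.

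The values are normalised expression values, deposited to 2 decimals without a named unit, and their library totals lay between 851404 and 868133. Read depth is unknown, and a listed 0 may be a failed estimate. Over all 25841 tested genes replicate 1 of the 2 h harvest lay somewhat apart, with a median absolute log2 difference of 0.151 and 0.158 from replicates 2 and 3, against 0.119 between those 2 libraries. For the 55 genes these values were 0.192, 0.186 and 0.124, so that library lay apart within its harvest for the members too. Pairs of libraries at the other harvests, where the members have lower values, lay between 0.141 and 0.272. Without that library the rule gave 53 genes, of which 51 were among the 55. All tested genes together had a median log2 difference from 0 h of 0.13 after 2 h, 0.21 after 4 h and 0.20 after 6 h. Over the 22180 genes that met the 0 h minimum, as every member did, these medians were 0.06, 0.15 and 0.13. Differences of single genes are to be read relative to both sets of medians.

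A rise at 2 h followed by return was the less frequent course. The 0 h minimum was met by 22180 genes, and 662 of these had the rise of at least 1.5 at 2 h. Of the 662, 77 (11.6%) were within 0.5 of 0 h at 4 h, and 55 (8.31%) were so at 6 h as well. Another 544 were more than 0.5 above 0 h at both later harvests, 11 were more than 0.5 below it at both, and 52 had a mixed course.

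The later levels of the 662 genes formed 1 continuous distribution, in which the 55 genes occupy the lower flank. At 4 h, 27 genes lay between -0.5 and 0 on the log2 scale, 50 between 0 and 0.5, 98 between 0.5 and 1 and 87 between 1 and 1.5. At 6 h the same intervals held 25, 55, 85 and 105 genes. No gap separated the genes that returned from those that stayed higher. The limit of 0.5 therefore divides neighbouring genes. For each threshold, the nearest gene outside is given here among those that met every other condition of the rule. The member farthest from 0 h at 4 h differed by 0.47 in size and the nearest such gene outside by 0.51. At 6 h these differences were 0.49 and 0.53. The smallest rise of a member at 2 h was 1.52, and the nearest such gene under the minimum had 1.46. The lowest 0 h mean was 1.14 on the log2 scale, and the nearest such gene outside had 0.96.

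**Figure D1:**
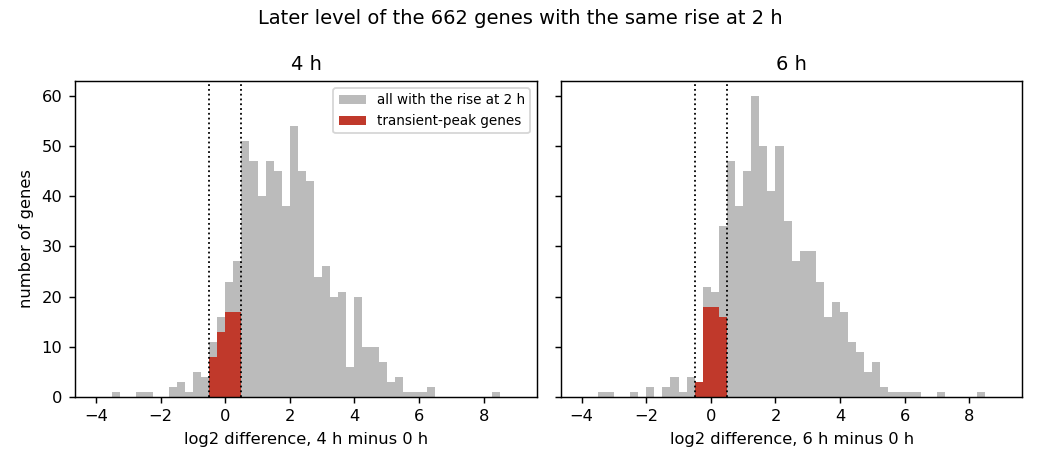
Histograms of the log2(value + 1) difference from 0 h at 4 h (left) and 6 h (right) for the 662 genes with the rise at 2 h (grey) and the 55 transient-peak genes among them (red); dotted lines mark the limits of -0.5 and 0.5. The red genes sit on the lower flank of a single distribution, of which 98 genes lie between 0.5 and 1 at 4 h.

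On the log2(value + 1) scale, the largest rise among the 55 genes was that of CTI12_AA292010. Its values were 6.65, 5.94 and 6.25 in the 3 libraries at 0 h, 35.70, 51.55 and 45.98 at 2 h, 6.26, 7.25 and 5.13 at 4 h, and 5.68, 5.33 and 4.85 at 6 h. Every library at 2 h was far above the other 9, the 4 h libraries spanned those at 0 h, and all 3 libraries at 6 h were slightly below every library at 0 h. The mean of 44.4 ± 8.04 (SD, n = 3) at 2 h was 7.07 times the 6.28 ± 0.356 before exposure. On the log2(value + 1) scale it differed from 0 h by 2.63 ± 0.135 (SE from the limma model) after 2 h, by -0.02 after 4 h and by -0.21 after 6 h, the last of which was -0.42 with median-ratio scaling of the libraries. By the ratio of means another member, of lower level, stood higher: it went from 1.23 ± 0.165 (SD, n = 3) to 9.88 ± 4.25, a ratio of 8.03.

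CTI12_AA058160 had the next largest rise on the log2(value + 1) scale. It was listed at 4.68, 6.00 and 5.90 at 0 h, at 36.40, 33.58 and 32.34 at 2 h, at 4.95, 5.83 and 5.39 at 4 h and at 5.70, 5.51 and 5.81 at 6 h. The libraries of 0, 4 and 6 h overlapped one another, and those of 2 h lay above them without overlap. The mean at 2 h, 34.1 ± 2.08 (SD, n = 3), was 6.17 times that at 0 h, and the means at 4 and 6 h were 0.975 and 1.03 times it. Its log2 difference at 4 h was -0.03 on the deposited values and -0.24 with median-ratio scaling.

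The highest values of the group at 2 h belonged to CTI12_AA269690 and CTI12_AA413440, the only members above 100 at 0 h. CTI12_AA269690 was measured at 133.37, 127.77 and 112.31 before exposure, 471.19, 338.35 and 333.28 after 2 h, 135.13, 162.28 and 193.77 after 4 h and 145.84, 142.73 and 136.56 after 6 h. Replicate 1 was the highest of its 2 h libraries by a wide margin, and every library at 4 and 6 h was above every library at 0 h. Relative to 0 h its mean stood at 3.06 times after 2 h, 1.32 times after 4 h and 1.14 times after 6 h. CTI12_AA413440 was more even, at 103.02, 110.33 and 104.63 at 0 h, 359.91, 369.04 and 363.66 at 2 h, 126.18, 133.64 and 121.78 at 4 h and 125.08, 135.37 and 108.89 at 6 h. Its libraries at 4 h were all above those at 0 h, while at 6 h the lowest of them fell within the range of 0 h. Its mean at 2 h, 364.2 ± 4.59 (SD, n = 3), was 3.44 times that at 0 h, and the later means were 1.20 and 1.16 times it. Both genes thus ended somewhat above 0 h on the deposited scale, by 0.19 and 0.21 in log2 at 6 h. These differences are close to the 0.20 by which the median tested gene stood higher. They are above the median of 0.13 over the genes that met the 0 h minimum. With median-ratio scaling of the libraries they were -0.05 and -0.03.

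**Figure D2:**
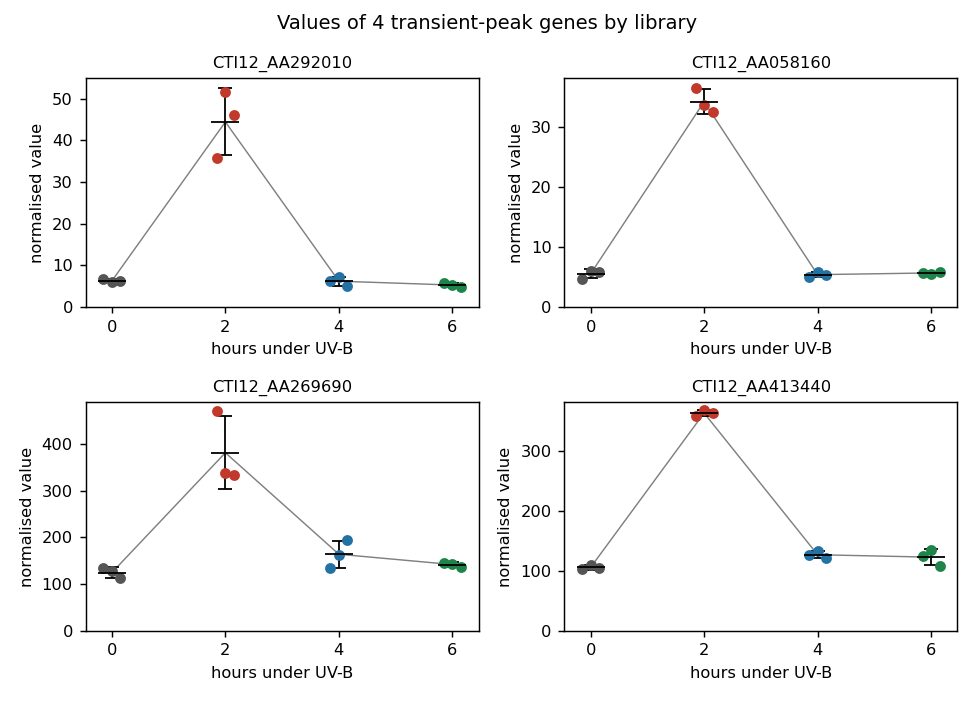
Normalised value (linear axis from 0) against hours under UV-B for 4 transient-peak genes; points are the 3 libraries of each harvest, horizontal marks and bars the mean and SD, and the grey line joins the means. In each panel the 2 h libraries lie above all others, and CTI12_AA269690 and CTI12_AA413440 have means of 1.14 and 1.16 times the 0 h mean at 6 h.

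Over all 55 genes, the log2 rise at 2 h ranged from 1.52 to 2.63 with a median of 1.74, and 13 genes had a rise of 2 or more. As ratios of mean values without a pseudocount, the rises ran from 2.96 to 8.03, with a median of 4.22, and 30 genes were at 4 or more. The 544 genes that stayed higher had a median log2 rise of 2.07 at 2 h and reached 8.24. The 52 genes with a mixed course had a median rise of 1.81 and the 11 that ended below 0 h one of 1.75. Both medians are near that of the 55, and the largest rises in these groups were 5.50 and 4.06. None of the 55 passed 2.63, but their median height was not particular to them. The value at 2 h was 2.33 to 10.6 times that at 4 h, with a median of 3.69.

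The genes with the peak were mostly of low to middle abundance. Their mean value at 0 h ranged from 1.23 to 124.5 with a median of 5.49, against a median of 6.82 over the 22180 genes that met the 0 h minimum and of 4.84 over the 544 genes that stayed higher. At 2 h the median was 21.7 and the highest mean 380.9. By level at 0 h, 23 genes were under 5, 24 were from 5 to under 20, and 8 were at 20 or above. The median ratio of 2 h to 0 h was 4.82 in the lowest of these classes, 3.76 in the middle one and 3.13 in the highest. On the log2(value + 1) scale the medians were 1.75, 1.74 and 1.62. The pseudocount compresses low values, so a gene of low level needed a larger ratio to reach the minimum of 1.5, and the order of the ratios is partly set by the rule.

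As a sum, the 55 genes took up 761.3, 747.0 and 707.1 units of value in the 3 libraries at 0 h and 2666, 2557 and 2666 at 2 h. The sums were 834.4, 873.4 and 850.0 at 4 h, and 860.6, 834.9 and 798.1 at 6 h. The libraries at 2 h agreed within a narrow range, and on the deposited values all 6 later libraries lay slightly above the highest library at 0 h. Median-ratio scaling divides the 0 h libraries by 0.895 to 0.906 and those of 4 and 6 h by 1.05 to 1.09. It thus lowers the later sums relative to those at 0 h, and the small excess depends on the scaling. As a share of the library total, the sum went from 0.0853% ± 0.00324 (SD, n = 3) before exposure to 0.307% ± 0.00621 after 2 h. It was 0.0993% ± 0.00242 after 4 h and 0.0972% ± 0.00353 after 6 h. The 4 members with the highest values at 2 h made up 43% of the summed mean at 2 h and 46.6% at 0 h, so the sum gives much weight to those few genes.

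The 2 h libraries stood apart for nearly all members. All 3 were above all 3 libraries at 0 h for 54 of the 55 genes, where 39.3% of all tested genes had such an order, and above all the other 9 libraries for 53 genes, where 11.8% had it. In limma's test with Benjamini-Hochberg adjustment over all tested genes, 53 of the 55 were called higher at 2 h than at 0 h (36.2% of all tested genes were), 54 were called lower at 4 h than at 2 h (19.5%) and 52 lower at 6 h than at 2 h (20%). The rule chose the genes on these contrasts, so the counts describe how the choice turned out and nothing more. All 55 genes passed the filter on low values, and all would have passed it without the 2 h libraries.

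**Figure D3:**
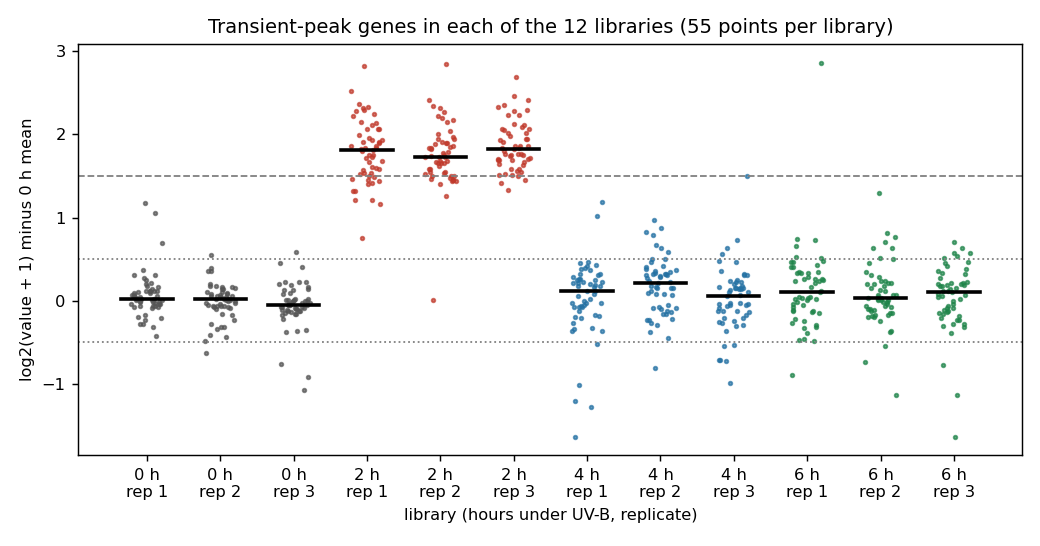
Difference of log2(value + 1) from the gene's 0 h mean (vertical axis) in each of the 12 libraries (horizontal axis); each point is 1 of the 55 transient-peak genes, black bars are medians, the dashed line marks the minimum rise of 1.5 and the dotted lines the return limits of 0.5. The medians of the 2 h libraries lie at 1.81, 1.73 and 1.83, and single genes in the 4 and 6 h libraries scatter beyond the limits that their means keep to.

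A few members met the rule on scattered values. For 1 member the 2 h values were 28.99, 5.03 and 31.04, and the second of these lay within the 0 h range of 3.81 to 6.90. Its mean rise of 1.58 thus came from replicates 1 and 3. A second member was listed at 3.98, 0.65 and 0.30 at 0 h, 10.37, 6.33 and 10.12 at 2 h, 0.09, 3.04 and 5.21 at 4 h and 15.04, 0 and 0 at 6 h. One of its libraries at 6 h was higher than any at 2 h, and its return at that harvest is an average of 1 high value and 2 listed zeros. The last of them had 5.47, 2.14 and 0.48 at 0 h, 10.13, 8.12 and 16.14 at 2 h, 0, 5.09 and 0.89 at 4 h and 1.24, 6.65 and 0 at 6 h. The second and the last were the members that limma did not call at 2 h (adjusted p = 0.112 and 0.0754). In all, 4 members had at least 1 library listed at 0.

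The spread within a harvest was larger for the peak genes than for the genes that stayed higher, in medians and without a test. For the 55 genes the median coefficient of variation of the 3 libraries was 13.5% before exposure, 10.2% after 2 h, 12.5% after 4 h and 16.4% after 6 h. The 544 genes that stayed higher had medians of 12.2%, 7.18%, 5.68% and 5.78%. The medians of these 2 groups are close at 0 h, where their levels are alike. They lie further apart at 4 and 6 h, where the genes that stayed higher have higher values. Whether the level accounts for this was not tested. The 52 genes with a mixed course had larger medians than the 55, of 25.2%, 12.2%, 24.3% and 19.6%. The 11 genes that ended below 0 h had 31.6%, 8.91%, 22.1% and 32.9%, the last 2 over 7 genes. A larger spread was thus not particular to the 55 genes.

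At 4 h the members lay on both sides of 0 h. The log2 difference ranged from -0.46 to 0.47 with a median of 0.09. The mean was above 0 h for 34 genes and below it for 21, and it was within 0.25 for 30. The 4 h libraries overlapped those of 0 h for 38 genes, were all above them for 12 (45.9% of all tested genes had this order) and all below them for 5 (20.5%). The limma model called 13 genes higher at 4 h than at 0 h (42% of all tested genes) and 3 lower (18%). These 16 calls became 9 without replicate 2 of the 0 h harvest, and 10 without replicate 1 or without replicate 2 of the 4 h harvest. The shares of all tested genes in those runs are not given here, and nothing is read from the change. As a share of the rise at 2 h, the log2 difference remaining at 4 h ranged from -27.1% to 25.8%, with a median of 5.22%.

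At 6 h the range was -0.37 to 0.49 and the median 0.05. The mean was again above 0 h for 34 genes and below it for 21, and it was within 0.25 for 36. The libraries overlapped those of 0 h for 43 genes, were all above for 10 (44.6% of all tested genes) and all below for 2 (20.8%). The limma model called 8 genes higher (41.3% of all tested genes) and 0 lower (18.5%). The rule kept every member within 0.5 of 0 h, and these counts are given only as a description. The 4 h and 6 h differences share the 0 h libraries.

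The side of 0 h on which the members ended depended on the library scaling. On the deposited values, the 23 members under 5 at 0 h had median log2 differences of 0.02 at 4 h and -0.01 at 6 h, the 24 from 5 to under 20 had 0.09 and 0.05, and the 8 at 20 or above had 0.22 and 0.20. Only the last class was near the medians of all tested genes, 0.21 and 0.20. The medians over the genes that met the 0 h minimum, 0.15 and 0.13, lay between those of the middle and the last class. After median-ratio scaling, which brings the median of all tested genes to 0.01 at 4 and 6 h, the median of the 55 genes moved from 0.09 to -0.10 at 4 h and from 0.05 to -0.14 at 6 h. The mean was then above 0 h for 20 genes and below it for 35 at each harvest. Calls turned over in the same way. At 4 h they went from 13 higher and 3 lower to 0 higher and 11 lower. At 6 h they went from 8 higher and 0 lower to 1 higher and 8 lower. Of the 25785 genes that passed the filter on the scaled values, 28.5% were called higher and 28.3% lower at 4 h, and 28.7% and 28.5% at 6 h. The scaling divides all values of a library by the same factor, and the rule used these contrasts, so the turn is not a result about the members. The rise at 2 h kept its direction for all 55 genes, with a median of 1.62 in place of 1.74.

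Membership moved with the scaling as well. The rule gave 56 genes on the scaled values, of which 32 were among the 55. Of the 23 genes that left, 20 had a scaled rise under 1.5 at 2 h, and 4 at 4 h and 2 at 6 h were more than 0.5 below 0 h. Of the 24 genes that entered, 18 had been more than 0.5 above 0 h at 4 h on the deposited values, and 14 had been so at 6 h.

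**Figure D4:**
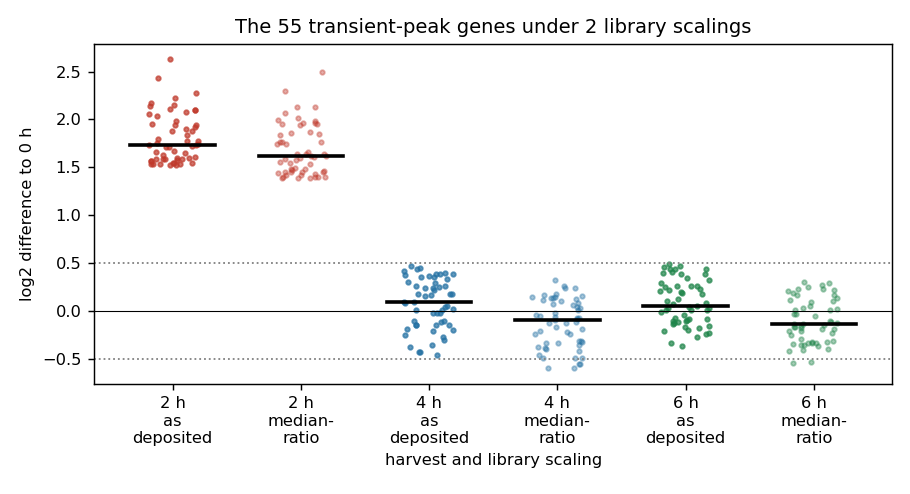
Log2(value + 1) difference from 0 h (vertical axis) of the 55 transient-peak genes at 2, 4 and 6 h, with the values as deposited and after median-ratio scaling of the libraries; black bars are medians and dotted lines mark -0.5 and 0.5. The medians at 4 and 6 h pass from 0.09 and 0.05 to -0.10 and -0.14, while all genes stay above 1.38 at 2 h.

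How exactly a return is known differed between members. The standard error of the 4 h difference in the limma model ranged from 0.0568 to 1.06, with a median of 0.139 against 0.116 over all tested genes. The 95% interval of the 4 h difference lay within the limits of -0.5 and 0.5 for 23 of the 55 genes, and that of the 6 h difference for 23. Both intervals did so for 16 genes. For the other 32 at each harvest the interval reached past a limit, so that a remaining difference above 0.5 in size remains within the interval. The lower end of the interval of the rise was at 1.5 or more for 21 genes. The rule chose the genes on these same differences, so the centre of every interval keeps to the limits by choice. No share of other genes was computed for these interval counts, which are given only as a description.

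Between 4 and 6 h the members differed little. The log2 difference of 6 h from 4 h ranged from -0.39 to 0.75 with a median of 0.01, where the rule allows at most 1 in size and the median over all tested genes was -0.02. Of the 55 genes, 29 were higher at 6 h and 26 lower. The limma model called 1 higher (4.44% of all tested genes) and 0 lower (5.47%). At an unadjusted limma p under 0.05, 6 were higher and 5 lower. The share of all tested genes at that limit is not given here, and nothing is read from these 2 counts. The called gene, singled out after its values were seen, was listed at 41.95, 35.80 and 36.76 at 0 h, 139.15, 151.61 and 148.92 at 2 h, 41.25, 40.22 and 36.29 at 4 h and 53.45, 47.49 and 51.35 at 6 h. Its 4 h libraries overlapped those at 0 h, and its 6 h libraries lay above both. The difference of 6 h from 4 h was 0.36 ± 0.0712 (SE; limma adjusted p = 0.00805, 0.00461 to 0.0359 over the alternatives). The count of called members was 2 without replicate 2 of the 4 h harvest and 2 without replicate 1 of the 6 h harvest. For these runs, too, the share of all tested genes is not given here.

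To read the course in libraries that had no part in the choice, the rule was applied 3 times with 1 replicate number left out at every harvest, and the chosen genes were then measured in the left-out libraries. Without replicate 1 the rule chose 51 genes, of which 41 were among the 55. In the replicate 1 libraries their median log2 differences from 0 h were 1.85 (2 h), 0.15 (4 h) and 0.13 (6 h), and 50 of the 51 had their highest value at 2 h. Over all genes that met the 0 h minimum in the remaining libraries, 27.7% had their highest value of that replicate at 2 h, and the medians were 0.10, 0.13 and 0.12.

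Replicates 2 and 3 gave like values. Without replicate 2, 58 genes were chosen and had left-out medians of 1.74, 0.26 and 0.13, with the highest value at 2 h for 56 of them (22.2% of all genes that met the minimum). Without replicate 3, 49 genes were chosen and had medians of 1.79, 0.09 and 0.07, with the highest value at 2 h for 47 (22.4%). In the libraries used for the choice the median rises were 1.81, 1.77 and 1.73, close to those in the left-out libraries. The same numbers across harvests mark no shared plant or batch in the labels.

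Single libraries met the limits less often than the means did. The rise of at least 1.5 was present in the left-out libraries for 39 of 51, 44 of 58 and 37 of 49 genes, where 3.71%, 3.35% and 3.48% of all genes that met the minimum had it. Both later differences were within 0.5 for 31, 30 and 31 of these genes. Among all genes with a rise of at least 1.5 in the same libraries this share was 9.94%, 7.93% and 8.40%, and among all genes that met the minimum it was 49.4%, 49.1% and 48.1%. The whole rule was met in the left-out libraries by 23, 22 and 23 genes. The chosen genes thus kept the peak in nearly every case, while the exact limits of the return were met in single libraries by some of them.

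**Figure D5:**
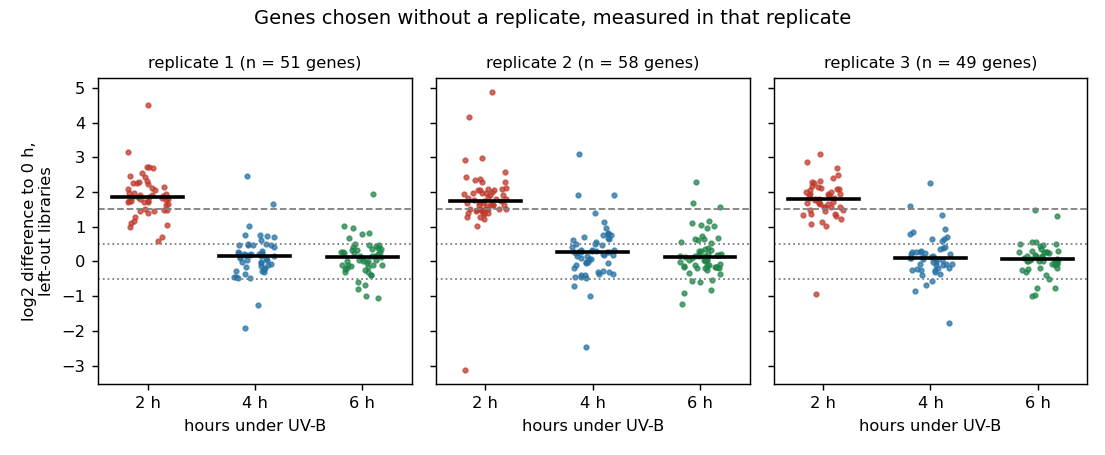
Log2(value + 1) difference from the 0 h library (vertical axis) at 2, 4 and 6 h in the left-out replicate, for genes chosen on the other replicates; points are genes, black bars medians, the dashed line marks 1.5 and the dotted lines -0.5 and 0.5. The medians at 2 h are 1.85, 1.74 and 1.79, and those at 4 and 6 h lie between 0.07 and 0.26.

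The members were spread over the identifiers. The table lists 63226 genes under numbered identifiers, and no 2 of the 55 genes had consecutive numbers. The closest pair was 7 numbers apart, 1 pair of neighbouring members lay within 10 numbers, and the median distance between neighbouring members was 851. Next to 2 members stood another of the 662 genes with the rise at 2 h. What the numbers say about position in the genome is not given by the table, and no chance level was computed.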

How the data were processed

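RNA from 12 leaf libraries (4 harvests, 3 libraries each) was analysed. The authors deposited 1 table of normalised expression signal per gene and library; per the file header no unit is named. Per the submitters' processing notes HISAT2 2.1.0, Salmon and DESeq were used, with no roles given; the sources used here do not name a genome build. Columns of no sample numbered 0. Depth is unknown, so no count model, counting interval or floor was computed; p-values measure the spread between libraries.

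Values were taken as log2(value + 1). The selection rule used the means of all harvests, and the genes, lists and tests were chosen with earlier results of these data known. The 25841 genes listed at 1 or more in 3 or more libraries entered 1 limma model (limma 3.58.1, R 4.3.3; trend and robust estimation) of 4 groups, without a replicate term; Benjamini-Hochberg adjusted p under 0.05 was a call. The procedure was tested on simulated data. Named are the 2 members with the largest rise at 2 h and, among the rest, the 2 with the highest mean at 2 h. The gene lists and cell type markers written for this work need gene names and could not be applied. Alternatives were other pseudocounts (0.1 and 5), testing without the filter, scaling the libraries by median ratios, limma without trend, models of 2 harvests, a replicate block, other limits of the rule and leaving out libraries.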

Additional observations from a re-analysis of the deposited data

Results flagged for a closer look

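By the test of the difference itself, 54 of the 55 genes were lower at 4 h than at 2 h (19.5% of all tested genes were), a difference that the choice of the genes fixes. Between 4 and 6 h, 1 gene differed and was higher at 6 h, by 0.36 on the log2 scale (limma adjusted p = 0.00805). Among all tested genes 4.44% were called higher and 5.47% lower. The rule limits this difference to at most 1 in size for the members and not for other genes. The count of 1 in 55 is therefore not read as a result about the members. The called gene was higher in all 3 libraries at 6 h, 47.49 to 53.45, than in any at 4 h, 36.29 to 41.25.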

How the results depend on the processing

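The number of genes that met the rule moved most with its own limits: 292 with a minimum rise of 1 and 13 with 2, 23 with a return limit of 0.25 and 104 with 0.75, and 206 without the 0 h minimum. A pseudocount of 5 gave 26 genes, of which 13 were among the 55, and one of 0.1 gave 68, of which 43 were. Leaving out 1 library gave 50 to 58 genes and leaving out 1 replicate number at every harvest 49 to 58.

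With the 55 genes held fixed, calls at 2 h numbered 51 to 54 and at 6 h 6 to 9 without 1 library. At 4 h, 16 calls became 9 without replicate 2 of the 0 h harvest, 10 without replicate 1 and 10 without replicate 2 of the 4 h harvest, and 9 to 15 over all libraries. Between 6 and 4 h, 1 call became 2 without trend and robust estimation and 1 to 2 without 1 library; the cause was not tested. Over all tested genes, same-numbered libraries did not deviate together (r from -0.02 to 0.04, 0 of 18 pairs over 0.1), so no pairing by number was seen. A pairing that touches only some genes was not tested. A replicate block gave 2 calls between 6 and 4 h, and 52, 15 and 9 at 2, 4 and 6 h. The shares of all tested genes called in these runs are not given here, and the rule used the contrasts with 0 h. A change in these counts is therefore not read as a result about the members.

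For the 4 named genes the rise at 2 h kept its direction and its call in every alternative run. CTI12_AA269690 did not keep to the limits of the rule in all of them. Its rise was 1.44 with median-ratio scaling and 1.43 without replicate 1 of the 2 h harvest, both under 1.5. Without replicate 1 of the 4 h harvest its 4 h difference was 0.511, above 0.5. With median-ratio scaling 2 further differences passed the test, -0.418 for CTI12_AA292010 at 6 h (limma adjusted p = 0.0296) and -0.241 for CTI12_AA058160 at 4 h (limma adjusted p = 0.0344). Over all alternatives these p-values were 0.0296 to 0.398 and 0.0344 to 0.903. Other calls were lost. For CTI12_AA413440 the limma adjusted p of 0.00565 at 4 h and 0.0185 at 6 h became 0.926 and 0.747 with that scaling. For CTI12_AA269690 the limma adjusted p at 4 h was 0.0498, and 0.0149 to 0.446 over all alternatives. Its 6 h difference was called in the model of 2 harvests (limma adjusted p = 0.0439). Small later differences changed sign. With median-ratio scaling the 6 h difference was -0.17 for CTI12_AA058160, -0.0488 for CTI12_AA269690 and -0.0282 for CTI12_AA413440. Without 1 library the 4 h difference was -0.125 to 0.0894 for CTI12_AA292010 and -0.123 to 0.0273 for CTI12_AA058160, the 6 h difference of the latter -0.0588 to 0.0919, and that between 6 and 4 h of CTI12_AA413440 -0.122 to 0.0336. Read depth, which limits genes of low value, is unknown.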
